A study of Mus musculus with 22 samples.

Results

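Dendritic cell genes were followed through sorted cells of mouse mammary tumors. The set holds 10 genes chosen by symbol, Flt3, Zbtb46, Xcr1, Clec9a, Cd209a, Siglech, Batf3, Irf8, Ccr7 and Fscn1, of 41388 genes in the count tables. All 10 were found by their Ensembl identifiers and all 10 exceeded 1 CPM (counts per 1e+06 counts of the library) in at least 2 libraries, so that they are among the 15043 genes tested. Clec9a and Siglech each passed that filter through 3 CD45+ libraries and no CD45- library.

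The study sorted stroma of mammary tumors by the pan-leukocyte surface protein CD45 and by TdTomato (TdT), a reporter switched on by Cre. The 4 sorted populations are double positive cells (DP, TdT+ and CD45+), CD45 single positive cells, TdT single positive cells and double negative cells (DN). DP and CD45 single positive libraries are called CD45+ here, TdT single positive and DN libraries CD45-. Each population came from 2 genotypes on the C57BL/6 strain at postnatal day 56, with 2 libraries per genotype for TdT single positive cells and 3 for each of the others, 22 in all. Mice of both genotypes carry Osx-cre and the Ai9 reporter: Osx-cre;Ai9 mice are labelled wild type, and Cdh2-cKO;Ai9 mice are labelled as lacking Cdh2 in cells with Osx-cre activity. All mice bore tumors, which the sample labels describe as orthotopic MMTV-BO1, the series design as subcutaneous, and the publication as grown from PyMT-BO1 cells carrying GFP. Osx-cre drives both the deletion and the reporter, so TdTOSX+ marks a history of Cre activity and not present Osterix expression. Sp7, which encodes Osterix, had 3 counts in all 22 libraries together. Total counts per library ran from 16594228 to 26784003, where 3 counts correspond to 0.112 to 0.181 CPM.

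Dendritic cells take up antigen, carry it to lymph nodes and show it to T cells. They arise from bone marrow progenitors under the cytokine FLT3 ligand, and divide into conventional type 1 cells that cross-present antigen to CD8 T cells, conventional type 2 cells, plasmacytoid cells that make type I interferon, and a mature migratory state. In tumors they lie among macrophages, with which they share many genes, and most of the genes described here are also found in other cells.

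The genotype label was read against Cdh2, the gene named in it. Cdh2 in TdT single positive libraries was 9.48 and 5.79 CPM in the wild type and 18.7 and 14.8 CPM in the libraries labelled cKO. In DN libraries it was 7.0, 7.97 and 4.58 CPM in the wild type against 14.3, 21.5 and 16.8 CPM in those labelled cKO. Every CD45- library labelled cKO was thus above every CD45- wild-type library (log2 difference 1.2, SE 0.55, adjusted p 0.468, not called). DN cells carry no TdT, the mark of Osx-cre activity, so their Cdh2 cannot show whether the deletion took place. CD45+ libraries held less: 0.649, 0.325 and 0.394 CPM in wild-type DP cells, 0.514, 0 and 0.372 CPM in DP cells labelled cKO, 0.315, 1.56 and 0.442 CPM in wild-type CD45 single positive cells, and 0.346, 2.28 and 0.615 CPM in those labelled cKO. Counts are summed over the whole gene, so a deleted stretch is not seen apart from the rest. Since Cdh2 was not lower in TdT single positive libraries labelled cKO, the groups are called by their labels throughout, as libraries labelled cKO. Exchanged genotype labels would turn the sign of every genotype difference given below, and these counts do not settle whether that is so.

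Some libraries stand apart, and they bear on these genes. CD45 single positive wild-type replicate 2 held 1840 CPM of Ptprc, the gene of CD45, against 399 to 648 CPM in the other 11 CD45+ libraries. Its level of the B cell marker Cd79a was 875 CPM against 0.327 to 0.886 CPM in the others, its 7 T cell markers summed to 2634 CPM against 24.4 to 525 CPM, and its 8 macrophage markers to 3295 CPM, below the 10262 to 14959 CPM of the others. Its correlation of log2 CPM over genes with the rest of its group was 0.888. DN wild-type replicate 3, sorted as CD45-, held 342 CPM of Ptprc against 2.54 to 179 CPM in the other CD45- libraries, and had the lowest correlation with its group of the 22, 0.876, close to 0.886 in the wild-type TdT single positive pair and 0.887 in DN wild-type replicate 1. Summed over 5 leukocyte markers (Ptprc, Coro1a, Laptm5, Cd52 and Cd53), it reached 60.1% of the median CD45+ library. The other DN libraries reached 2.27%, 10.1%, 3.93%, 3.94% and 5.22%, and the TdT single positive libraries 2.46% and 19.2% in the wild type and 44.3% and 21.5% where labelled cKO. In the low libraries Cd53 made up 84.8% of this sum in TdT single positive wild-type replicate 1 and 72.5% in DN wild-type replicate 1, and Ptprc alone stood at 0.51% and 1.04% of its CD45+ median and the 8 macrophage markers at 0.736% and 1.07%. The sum is thus an uneven measure of leukocyte RNA in these sorts, and the part of such RNA in the differences given here was not tested. Results are given with these libraries and, where they move, without them.

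Between CD45+ and CD45- cells, 7 of the 8 genes above 1 CPM in at least 2 libraries of each side differed: 5 were higher in CD45+ libraries (Cd209a, Ccr7, Xcr1, Irf8 and Batf3), Zbtb46 and Fscn1 were higher in CD45- libraries, and Flt3 did not pass. Clec9a and Siglech were also called higher in CD45+ libraries, but they had entered the test through those libraries alone, so their values are a description. The test was edgeR's quasi-likelihood test over all 15043 genes, called at an adjusted p of at most 0.05. Of all genes tested, 63.7% were called in this comparison, 32.7% higher and 31.1% lower in CD45+ libraries, so that a call alone says little. The median log2 difference was 2.21 for these 8 genes and 0.06 for all genes tested. These are bulk libraries, in which fewer cells of a type and less RNA per cell cannot be told apart.

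**Figure D1:**
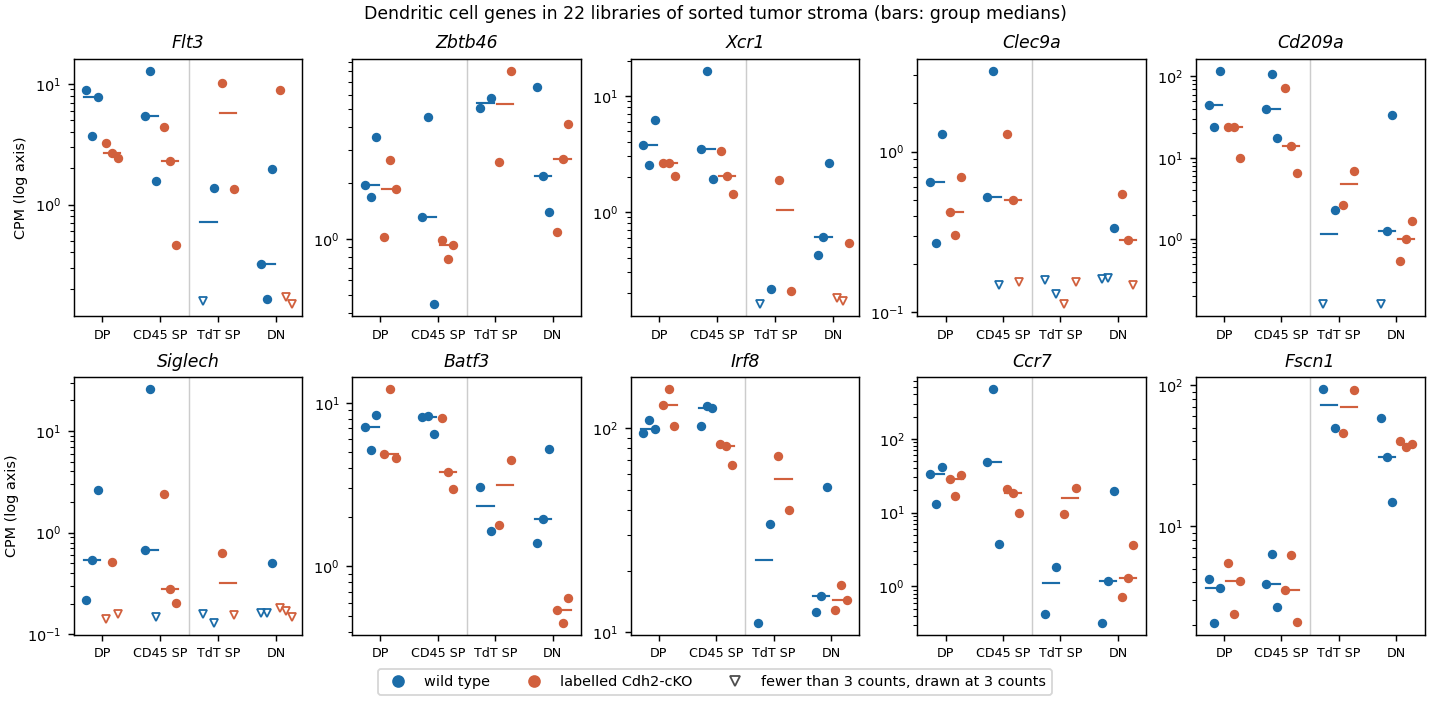
CPM of each gene (log axis) in each of the 22 libraries, by sorted population and genotype label; points are libraries, open triangles stand at 3 counts for libraries with fewer, and bars are group medians, left out where they lie near or under 3 counts. Fscn1 sits at 14.9 to 93.6 CPM in the 10 CD45- libraries, above all 12 CD45+ libraries at 2.06 to 6.37 CPM, while Irf8 lies higher in CD45+ libraries.

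Type 1 dendritic cells depend on the transcription factors Irf8 and Batf3. Irf8 was 95.2, 110 and 99.1 CPM in wild-type DP libraries, 131, 156 and 103 CPM in DP libraries labelled cKO, 102, 128 and 126 CPM in wild-type CD45 single positive libraries and 83.9, 82.2 and 66.2 CPM in those labelled cKO. In TdT single positive libraries it was 11.1 and 34 CPM in the wild type and 73.4 and 39.95 CPM where labelled cKO, and in DN libraries 12.6, 15 and 51.4 CPM against 12.9, 17 and 14.3 CPM. Irf8 was therefore well above 3 counts in all 22 libraries, and 11 of the 12 CD45+ libraries lay above every CD45- library (log2 difference 2.29, SE 0.26, adjusted p 8.16e-07). The high CD45- values were in libraries with high leukocyte marker sums. In the 5 CD45- libraries with the lowest sums, Irf8 stood at 10.8%, 12.3%, 12.5%, 16.5% and 13.9% of the CD45+ median, while the leukocyte marker sum stood at 2.46%, 2.27%, 3.93%, 3.94% and 5.22% and Ptprc at 0.51%, 1.04%, 2.14%, 3.67% and 2.57%.

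Batf3, which partners with Irf8 at shared sites, was 7.09, 5.14 and 8.46 CPM in wild-type DP libraries and 4.90, 12.1 and 4.57 CPM in those labelled cKO. CD45 single positive libraries held 8.24, 8.28 and 6.44 CPM in the wild type and 8.11, 3.78 and 2.97 CPM where labelled cKO. In CD45- cells it was 3.07 and 1.64 CPM in wild-type and 1.79 and 4.47 CPM in cKO-labelled TdT single positive libraries, and 1.39, 1.97 and 5.19 CPM in wild-type and 0.542, 0.452 and 0.642 CPM in cKO-labelled DN libraries. The ranges meet, with 7 of 12 CD45+ libraries above every CD45- library and 10 of 12 when DN wild-type replicate 3 is set aside (log2 difference 2.13, SE 0.30, adjusted p 1.11e-05). In the 5 CD45- libraries with the lowest leukocyte marker sums, Batf3 stood at 45.4% of the CD45+ median in TdT single positive wild-type replicate 1, 20.6% in DN wild-type replicate 1, and 8.02%, 6.69% and 9.5% in the DN libraries labelled cKO.

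As most of these genes were higher in the CD45+ sorts, the 300 bases around their RefSeq start sites, 250 before and 50 after, were searched on both strands for 3 motifs of factors known in this lineage. The promoter table at hand held RefSeq starts for 9 of the genes, with 10 windows, so that Ccr7 was not searched. The letters were TTCNNNGAA for the GAS element bound by STAT proteins, GGAA followed after any 2 bases by GAAA for the composite of ETS and IRF factors such as PU.1 with Irf8, and TGACTCA for AP-1, the family of Batf3. GAS letters were found at Batf3, Siglech and Irf8 and in 8.3% of all 32851 promoters in the table. Composite letters were found at Cd209a and in 2.72% of all promoters, and AP-1 letters at Zbtb46 and in 5.2%. A match is a run of letters and not a shown binding site. The Irf8 window is printed because Irf8 was measured in every library, and capitals mark its GAS letters, which begin 171 and 153 bases before the start (build GRCm38.p6, chr8:120736108-120736407, plus strand, RefSeq).
Irf8: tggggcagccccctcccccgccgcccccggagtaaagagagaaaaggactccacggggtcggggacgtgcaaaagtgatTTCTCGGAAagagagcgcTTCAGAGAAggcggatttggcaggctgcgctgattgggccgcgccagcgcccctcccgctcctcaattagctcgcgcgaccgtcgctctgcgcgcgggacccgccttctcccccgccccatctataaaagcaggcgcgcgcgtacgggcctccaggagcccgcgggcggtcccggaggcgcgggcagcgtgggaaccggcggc

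The surface receptors of type 1 cells, Xcr1 and Clec9a, were far scarcer than Irf8 and Batf3 by median level per length in CD45+ libraries. Xcr1, the receptor for the chemokine Xcl1 made by NK and T cells, was 3.73, 2.54 and 6.15 CPM in wild-type and 2.61, 2.63 and 2.02 CPM in cKO-labelled DP libraries. CD45 single positive libraries held 3.51, 16.4 and 1.92 CPM in the wild type and 3.31, 2.06 and 1.43 CPM where labelled cKO. CD45- libraries ran from 0 to 2.62 CPM with a median of 0.322 CPM, and the highest was DN wild-type replicate 3. With that library 6 of 12 CD45+ libraries lay above every CD45- library, and without it 11 did (log2 difference 3.26, SE 0.56, adjusted p 6.94e-05). The library rich in B cell markers held 34% of the Xcr1 summed over the 12 CD45+ libraries, and without it the difference was 2.94 (adjusted p 7.67e-05). The Xcr1 difference was 4.29 without TdT single positive wild-type replicate 2 and 3.85 without cKO-labelled replicate 1. Clec9a, a receptor for the actin of dead cells, gave few reads: 12, 5 and 26 counts in wild-type and 9, 7 and 13 counts in cKO-labelled DP libraries, and 10, 55 and 1 counts in wild-type and 26, 9 and 1 counts in cKO-labelled CD45 single positive libraries. The 10 CD45- libraries held 0 to 9 counts and 26 together, and by CPM 5 of 12 CD45+ libraries lay above every CD45- library. The fitted log2 difference of Clec9a was 3.78 (SE 0.82, with 2.81 by voom, 3.30 without CD45 single positive wild-type replicate 2 and 4.46 without TdT single positive replicate 1 labelled cKO), given as a description for a gene admitted through CD45+ libraries.

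Cd209a, a C-type lectin of type 2 and monocyte-derived dendritic cells, had per length the highest median of the 10 genes in CD45+ cells. It was 44.4, 23.8 and 117 CPM in wild-type DP libraries, 24.0, 23.7 and 10.1 CPM in DP libraries labelled cKO, 40.02, 108 and 17.3 CPM in wild-type CD45 single positive libraries and 71.9, 14 and 6.51 CPM in those labelled cKO. CD45- libraries lay at 0.0529 and 2.29 CPM in wild-type and 2.61 and 6.94 CPM in cKO-labelled TdT single positive cells, and at 0.107, 1.26 and 33.2 CPM in wild-type and 0.542, 1.02 and 1.68 CPM in cKO-labelled DN cells. Cd209a spread widely inside every CD45+ group, and the DN library at 33.2 CPM is again replicate 3 of the wild type. With it 5 of 12 CD45+ libraries lay above every CD45- library, and without it 11 did (log2 difference 3.97, SE 0.81, adjusted p 0.000385). The Cd209a difference was 4.94 without that library and 5.03 without TdT single positive wild-type replicate 2. Its window is printed because it leads in CD45+ cells, with the composite letters in capitals, on the opposite strand and starting 9 bases before the start (GRCm38.p6, chr8:3748935-3749234, minus strand, RefSeq).
Cd209a: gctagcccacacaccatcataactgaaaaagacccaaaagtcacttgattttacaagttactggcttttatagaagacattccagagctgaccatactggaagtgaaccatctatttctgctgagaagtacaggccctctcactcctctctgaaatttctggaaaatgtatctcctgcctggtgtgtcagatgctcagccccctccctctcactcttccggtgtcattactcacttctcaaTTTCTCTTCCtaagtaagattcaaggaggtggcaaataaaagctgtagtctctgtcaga

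Siglech, a sialic acid receptor used to mark plasmacytoid cells, was near the limit of the counts in most libraries. DP libraries held 4, 10 and 54 counts in the wild type and 0, 12 and 0 counts where labelled cKO. CD45 single positive libraries held 13, 446 and 2 counts in the wild type and 49, 5 and 4 counts where labelled cKO. The 446 counts, 25.8 CPM, belong to the library rich in B cell markers and make up 77.2% of Siglech CPM summed over the 12 CD45+ libraries, 93-fold the median of the other 11. CD45- libraries held 30 counts together and 5 of 10 held 0. As with Clec9a, the fitted log2 difference, 3.83 (SE 1.15, with 4 of 12 CD45+ libraries above every CD45- library), is a description, and it was 2.75 without that library. It was 5.21 without TdT single positive replicate 1 labelled cKO and 4.48 without DN replicate 1 labelled cKO. Leaving out DP replicate 2 labelled cKO left its group at 0 counts and moved the adjusted p from 0.00793 to 0.999.

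Ccr7 and Fscn1 are both raised when dendritic cells mature, Ccr7 as the chemokine receptor that leads them to lymph nodes and Fscn1 as the actin-bundling protein fascin, and here they parted. Ccr7 was 33.1, 13.3 and 40.9 CPM in wild-type DP libraries, 28.6, 16.6 and 32.7 CPM in DP libraries labelled cKO, 48.9, 470 and 3.73 CPM in wild-type CD45 single positive libraries and 20.9, 18.4 and 9.78 CPM in those labelled cKO. In CD45- cells it was 0.424 and 1.81 CPM in wild-type and 9.56 and 21.7 CPM in cKO-labelled TdT single positive libraries, and 0.321, 1.2 and 19.8 CPM in wild-type and 0.723, 1.30 and 3.61 CPM in cKO-labelled DN libraries. CD45+ libraries were higher on the whole, with 6 of 12 above every CD45- library (log2 difference 3.56, SE 0.76, adjusted p 0.000614). The value of 470 CPM, in the library rich in B and T cell markers, is 63.8% of the CD45+ sum, and without that library the difference was 2.92 (adjusted p 0.00091); without DN wild-type replicate 3 it was 4.29. Naive T cells and B cells also carry Ccr7, and their part in its level was not tested.

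Fscn1 ran the other way. It was 93.6 and 49.9 CPM in wild-type and 45.8 and 93.1 CPM in cKO-labelled TdT single positive libraries, and 58.9, 31.1 and 14.9 CPM in wild-type and 40.01, 36.6 and 38.3 CPM in cKO-labelled DN libraries. The 12 CD45+ libraries ran from 2.06 to 6.37 CPM with a median of 3.76 CPM. All 10 CD45- libraries lay above all 12 CD45+ libraries (log2 difference -3.40, SE 0.27, adjusted p 1.05e-08), a separation not counted over all genes. The lowest of the 10 was DN wild-type replicate 3, the CD45- library with the highest leukocyte marker sum. Fascin is also made by mesenchymal, endothelial and many carcinoma cells, and the CD45- libraries held the fibroblast markers Col1a1, Col1a2, Col3a1, Pdgfra and Dcn at a summed 4017 to 59449 CPM against 53.3 to 179 CPM in CD45+ libraries. Its source among these cells was not tested. Of the 10 genes, Fscn1 and Zbtb46 were lower in CD45+ libraries.

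Zbtb46, a repressor largely restricted among leukocytes to conventional dendritic cells and also made by endothelial cells, was higher in CD45- libraries as well. TdT single positive libraries held 5.08 and 5.74 CPM in the wild type and 2.61 and 8.07 CPM where labelled cKO, and DN libraries 6.57, 2.18 and 1.4 CPM against 1.08, 2.71 and 4.15 CPM. DP libraries held 1.95, 1.68 and 3.54 CPM in the wild type and 1.03, 2.67 and 1.86 CPM where labelled cKO, and CD45 single positive libraries 1.31, 4.52 and 0.442 CPM against 0.989, 0.778 and 0.922 CPM. The groups overlap broadly, with 4 of 10 CD45- libraries above every CD45+ library (log2 difference -0.93, SE 0.37, adjusted p 0.0353). The call lies near the threshold: it was lost, at log2 differences of -0.68 to -0.94 and adjusted p of 0.0511 to 0.138, on leaving out any of 10 libraries, which are TdT single positive wild-type replicates 1 and 2 and cKO-labelled replicate 2, DP wild-type replicates 1 and 2 and cKO-labelled replicate 1, CD45 single positive wild-type replicate 1 and cKO-labelled replicate 2, and DN wild-type replicate 1 and cKO-labelled replicate 3. With replicate number as a block, a pairing that the labels do not state, the call was also lost (-0.81, adjusted p 0.0769). Without CD45 single positive wild-type replicate 2 and DN wild-type replicate 3 the difference was -1.36 (adjusted p 0.0015), a setting added after the data were seen. The endothelial markers Pecam1, Cdh5, Kdr and Emcn were lower in CD45+ libraries, and with Tek and Tie1, above 1 CPM in no CD45+ library, they summed to 37.7 to 394 CPM in CD45- libraries against 8.07 to 33.3 CPM in 11 CD45+ libraries and 219 CPM in CD45 single positive wild-type replicate 2; their part in the Zbtb46 level was not tested. The window is printed because Zbtb46 is the conventional dendritic cell factor that ran against the others, with AP-1 letters in capitals from 61 bases before a RefSeq start that lies inside the span of the gene in the count tables (GRCm38.p6, chr2:181424339-181424638, minus strand).
Zbtb46: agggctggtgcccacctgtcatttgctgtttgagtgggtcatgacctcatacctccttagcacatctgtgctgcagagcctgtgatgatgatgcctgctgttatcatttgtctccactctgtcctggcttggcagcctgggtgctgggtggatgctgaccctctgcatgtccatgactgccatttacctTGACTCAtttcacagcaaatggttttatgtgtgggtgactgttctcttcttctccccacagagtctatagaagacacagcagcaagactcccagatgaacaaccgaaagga

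Flt3, the receptor for the growth factor of the dendritic cell lineage and of early progenitors, was the member that did not pass. It was 8.93, 3.68 and 7.82 CPM in wild-type DP libraries, 3.22, 2.67 and 2.45 CPM in DP libraries labelled cKO, 5.4, 12.9 and 1.57 CPM in wild-type CD45 single positive libraries and 4.40, 2.28 and 0.461 CPM in those labelled cKO. CD45- libraries held 0.0529 and 1.38 CPM in wild-type and 10.2 and 1.34 CPM in cKO-labelled TdT single positive cells, and 0.321, 0.164 and 1.95 CPM in wild-type and 8.86, 0.113 and 0.0988 CPM in cKO-labelled DN cells. A pair of CD45- libraries, replicate 1 of the TdT single positive and of the DN cells labelled cKO, thus reached 296% and 257% of the CD45+ median, while the other 8 stayed at or under 1.95 CPM. In the DN library of that pair the leukocyte markers were at 3.93% of their CD45+ median. The other genes there ran from Cd209a at 2.27%, Ccr7 at 2.93%, Batf3 at 8.02% and Irf8 at 12.5% to Zbtb46 at 72.6%, Clec9a at 106% (on 9 counts) and Fscn1 at 1060%, and Xcr1 and Siglech had 2 counts each, below the floor of 3. The log2 difference was 1.49 (SE 0.74, adjusted p 0.0871, with 1 of 12 CD45+ libraries above every CD45- library). It was 2.68 (adjusted p 0.00179) without DN replicate 1 labelled cKO, and was also called without TdT single positive wild-type replicate 2 (adjusted p 0.0407) or DN wild-type replicate 3 (adjusted p 0.0391). DESeq2 (adjusted p 0.0462) and limma voom with quality weights (adjusted p 0.0122) called it too. So did edgeR with replicate number as a block (2.33, adjusted p 0.0143), a pairing that the labels do not state.

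**Figure D2:**
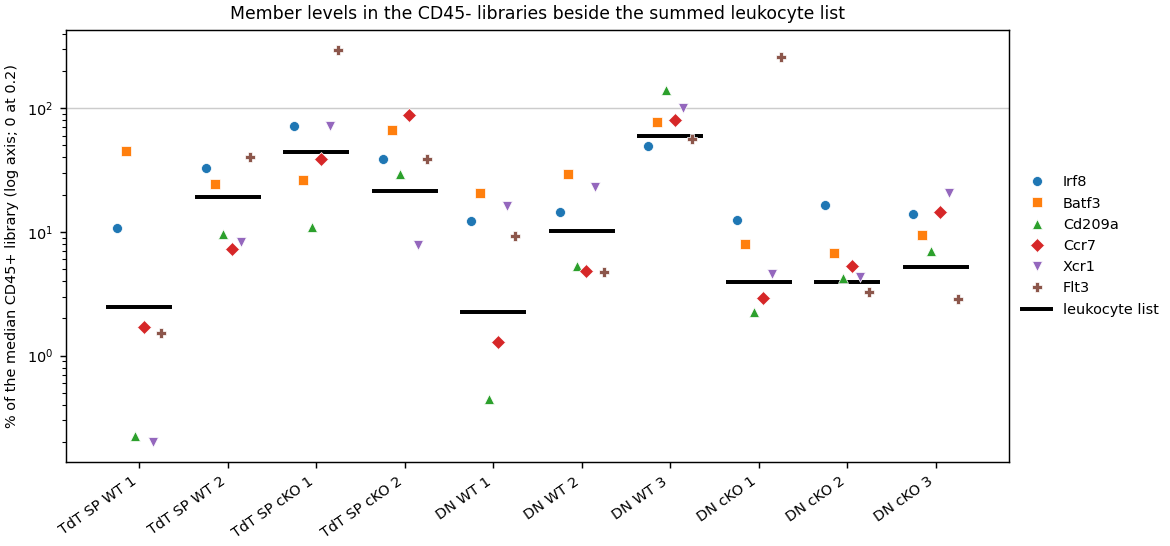
Level of the leukocyte marker sum and of selected dendritic cell genes in each of the 10 CD45- libraries, as a percent of the median CD45+ library (log axis; a count of 0 is drawn at 0.2); black bars are the leukocyte markers and symbols the genes. DN wild-type replicate 3 stands at 60.1% for the leukocyte markers and 139% for Cd209a, and Flt3 stands at 296% and 257% in a pair of libraries labelled cKO.

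Per length, as CPM per kilobase of gene (RPKM), the median order in CD45+ libraries was Cd209a 16.1, Irf8 14.6, Ccr7 12.5, Batf3 9.5, Fscn1 1.25, Xcr1 0.588, Flt3 0.445, Zbtb46 0.176, Clec9a 0.156 and Siglech 0.117 RPKM. The ranges of neighbours in this order overlap over the 12 libraries except those of Batf3 and Fscn1. The order inside each library was not compared. In CD45- libraries the median RPKM was highest for Fscn1, 14.2, followed by Batf3 at 2.41 and Irf8 at 2.27, and was lowest for Siglech at 0.00782.

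Whether Cre history goes with these genes inside the CD45+ cells is addressed by DP against CD45 single positive libraries. None of the 10 genes was called by edgeR, voom or DESeq2, against 0.00665% of all genes tested, which is 1 gene, Duoxa2 (log2 difference 3.27, SE 0.36, adjusted p 0.000933), named here after its value was seen. At an unadjusted p under 0.05 there were 1 of the 10 and 603 of all genes. That member is Siglech (log2 difference -2.62, SE 1.24, unadjusted p 0.0498, adjusted p 1), which was -0.47 without CD45 single positive wild-type replicate 2 and -5.13 without DP replicate 2 labelled cKO. Irf8 differed by 0.24 (SE 0.31) and Ccr7 by -0.92 (SE 0.87), which turned to 0.35 without that library. Within the wild type and within the libraries labelled cKO the edgeR count was again 0 of 10 and 0% of all genes, and voom and DESeq2 called 0 of the 10 in either. Over all genes DESeq2 called 4 and 2, and voom 0 and 1. At an unadjusted p under 0.05 there were 0 of the 10 in either, against 655 and 725 of all genes. The standard errors over the 10 genes were 0.31 to 1.24 on the log2 scale with both genotypes and 0.44 to 1.83 within a genotype.

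**Figure D3:**
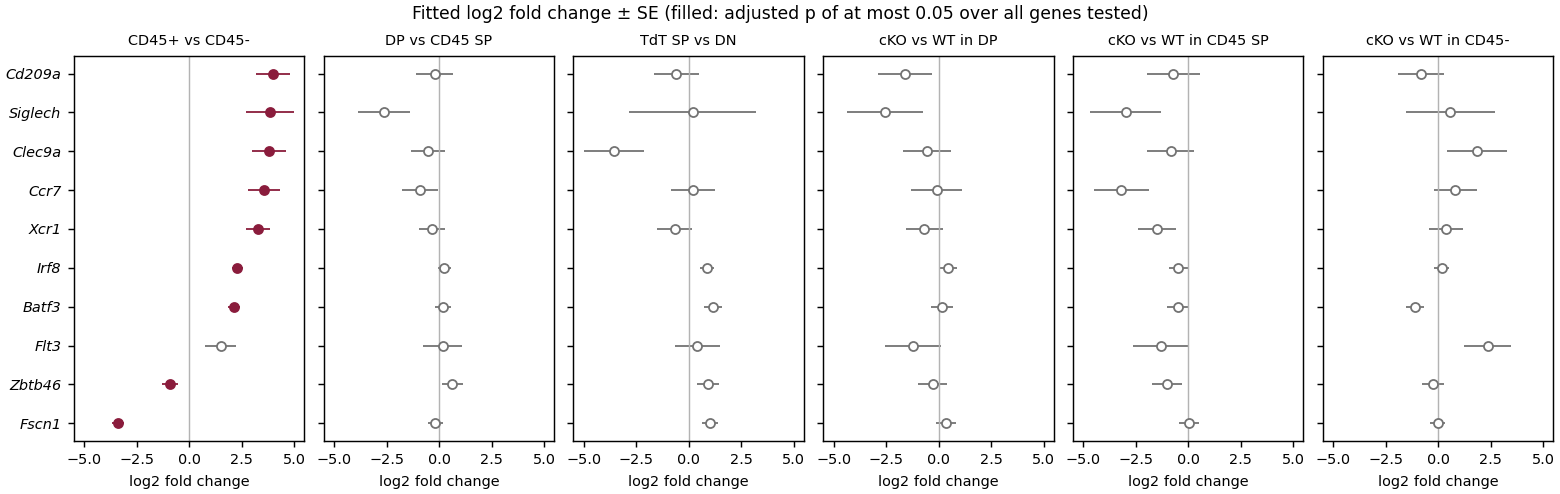
Log2 fold change of each gene in the comparisons (x axis), with bars of 1 SE and filled points for adjusted p of at most 0.05; cKO and WT are the genotype labels. Filled points are found for CD45+ against CD45- cells, for 7 of the 8 genes passing on both sides and for Clec9a and Siglech as a description, and for none of the 10 in the others.

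Between TdT single positive and DN cells, both CD45-, 0 of the 10 genes were called by edgeR, where 1.96% of all genes tested were (1.26% higher and 0.698% lower in TdT single positive cells). At an unadjusted p under 0.05 there were 4 of the 10 and 2854 of all genes: Batf3 (log2 difference 1.13, SE 0.43, adjusted p 0.161), Fscn1 (1.01, SE 0.37, adjusted p 0.146), Irf8 (0.87, SE 0.35, adjusted p 0.187) and Clec9a (-3.56, SE 1.44, adjusted p 0.192). Clec9a rests on 2 counts in 4 TdT single positive libraries against 24 in 6 DN libraries, and its fitted size depends on how the fit treats counts of 0. DESeq2 called 0 of the 10 and 6.55% of all genes, and voom 1 of the 10, Irf8, and 4.72% of all genes. Without DN wild-type replicate 3, Irf8 (1.38, SE 0.25, adjusted p 0.00893) and Batf3 (1.55, SE 0.40, adjusted p 0.0346) were both called, where 5.76% of all genes were (866 of 15030), and over all settings their adjusted p ran from 0.00441 to 0.554 and from 0.0274 to 0.5. Over all settings the log2 differences ran from 0.397 to 1.378 for Irf8 and from 0.751 to 1.547 for Batf3. Without DN wild-type replicate 3, the leukocyte marker sum stood at 2.46% to 44.3% of the CD45+ median in TdT single positive libraries. In the 5 DN libraries left it stood at 2.27% to 10.1%, so the ranges overlap. In that setting 1 of 5 leukocyte markers, Cd53 (1.61, adjusted p 0.0152), and 4 of 8 macrophage markers, among them Csf1r (2.34, adjusted p 0.0259), were called as well. All 5 leukocyte markers (log2 differences 1.61 to 2.22) and all 8 macrophage markers (1.87 to 2.96) were positive there. With DN wild-type replicate 3 kept, 0 of 5 and 0 of 8 were called, at log2 differences of 0.72 to 1.15 and 0.96 to 2.00. Their part in the Irf8 and Batf3 values was not tested.

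Between the genotype labels no member was called in the sorts compared. In DP cells 0 of the 10 genes were called by edgeR, voom or DESeq2, with 0% of all genes by edgeR and 0 of the 10 and 502 of all genes at an unadjusted p under 0.05. In CD45 single positive cells the counts were likewise 0 with each tool and 0% of all genes by edgeR, with 1 of the 10 and 1471 of all genes at an unadjusted p under 0.05. That member is Ccr7 (log2 difference -3.19, SE 1.32, adjusted p 0.465), which was -0.65 without the wild-type replicate 2 at 470 CPM. In these cells Irf8 was 102 to 128 CPM in the wild type against 66.2 to 83.9 CPM where labelled cKO (-0.48, SE 0.45, adjusted p 0.747). In DP cells the labelled cKO held 103 to 156 CPM against 95.2 to 110 CPM (0.44, SE 0.45). The difference between these differences, the interaction of genotype and TdT, was 0.92 for Irf8 (SE 0.63, adjusted p 0.955) and 3.11 for Ccr7 (SE 1.76, adjusted p 0.955). Over the alternatives this interaction ran from 0.782 to 1.065 for Irf8 and from 0.372 to 3.681 for Ccr7. For it 0 of the 10 and 0% of all genes were called by edgeR, and 0 of the 10 by voom and DESeq2. At an unadjusted p under 0.05 there were 0 of the 10 against 658 of all genes. In CD45- cells 0 of the 10 and 0% of all genes were called by edgeR, 0 of the 10 by voom and DESeq2, and 2 of the 10 and 1536 of all genes had an unadjusted p under 0.05. They are Batf3 (-1.09, SE 0.44, adjusted p 0.409, and -1.47 to -0.67 over the alternatives), and Flt3 (2.37, SE 1.12, adjusted p 0.489), which rests on the pair of libraries at 10.2 and 8.86 CPM. The Flt3 value was -0.02 without DN replicate 1 labelled cKO and 4.14 without TdT single positive wild-type replicate 2. Batf3 was lower in every DN library labelled cKO than in every wild-type DN library, but in TdT single positive cells the highest value, 4.47 CPM, was in a library labelled cKO. Irf8 in CD45 single positive cells and Flt3 in DP cells (-1.21, SE 1.325) likewise parted by label. The share of all genes that part in this way was not counted, so none of these is read as a result. Over all genes DESeq2 called 1 between the labels in DP, 33 in CD45 single positive and 127 in CD45- cells, and voom 0 in each. These comparisons share libraries with those above, and a p that misses the threshold does not show that the genotypes are alike.

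**Figure D4:**
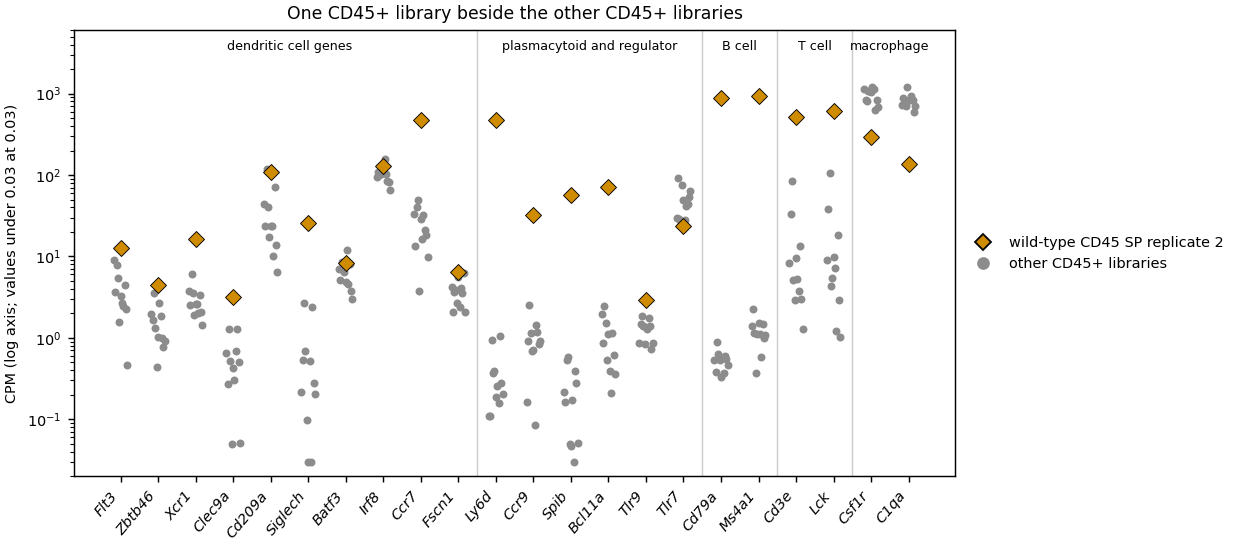
CPM of the 10 genes and of plasmacytoid, regulator, B cell, T cell and macrophage genes (log axis; values under 0.03 are drawn at 0.03) in the 12 CD45+ libraries, with CD45 single positive wild-type replicate 2 as diamonds. That library holds the highest Ccr7, 470 CPM, and the highest Siglech, 25.8 CPM, and an Irf8 level of 128 CPM within the range of the others.

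A large share of several of these genes lies in that library. Beside Siglech and Ccr7, it held 34.6% of the Clec9a, 23.1% of the Flt3 and 20.8% of the Zbtb46 CPM summed over the 12 CD45+ libraries, but 9.99% of the Irf8 and 10.3% of the Batf3. The other 11 plasmacytoid genes were spread: it held 99.2% of Ly6d, 95.8% of Spib, 75.1% of Ccr9, 72.8% of Pacsin1 and 59.1% of Klk1, but 18.5% of Irf7, 17.3% of Tlr9, 14.3% of Cox6a2, 8.31% of Tcf4, 5.85% of Bst2 and 4.25% of Tlr7. The B cell marker Cd79a stood at 99.3%. Ly6d and Spib are also B cell genes, so these shares do not single out plasmacytoid cells.

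Genes whose log2 CPM ran most like a member's over the 12 CD45+ libraries were found among all genes tested, for members above 1 CPM in at least 6 of them. Closest to Irf8 were Acvr1b (Pearson r 0.924), Hps4 and Prkab1, and closest to Batf3 were B4galt4 (0.937), Ptpn7 and Ggt5. Closest to Flt3 were Mycl (0.933), a factor of dendritic cell growth, Lzts1 and Taf5, and closest to Cd209a were Cd7 (0.922), Sept3 and Gcsam. Xcr1 ran closest to Ighm (0.978), the heavy chain of IgM, Ifi206 and H2-Q7, and Ccr7 to Zfp296 (0.982), Oasl2 and Acap1. Without the library rich in B cell markers r was 0.936 for Xcr1 with Ighm, 0.946 for Xcr1 with Ifi206, and 0.955 for Ccr7 with Zfp296. Fscn1 ran closest to Sik1 (0.877), Mgat1 and Ell, and Zbtb46 to Arnt2 (0.917), Rfxank and Gm26896. Clec9a and Siglech were above 1 CPM in 3 CD45+ libraries each and were not ranked. Each is the highest value among all genes tested and is a description.

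Other dendritic cell genes, 57 tested in 7 lists, place the members in a wider frame. They are counted here where a gene passed 1 CPM in at least 2 libraries of each side, beside all genes tested, of which 32.7% were higher and 31.1% lower in CD45+ libraries. Of the 6 genes shared by dendritic cells, which are antigen presentation genes and Itgax, 6 were higher in CD45+ libraries. Among them were H2-Ab1 (log2 difference 3.50, SE 0.58, adjusted p 5.84e-05) and Itgax (3.63, SE 0.62, adjusted p 7.92e-05). Cd74, the class II invariant chain, was the most abundant at a median 20445 RPKM in CD45+ and 1027 RPKM in CD45- libraries; macrophages and B cells make these genes too. Of 7 further type 1 genes, 5 were higher, including Cd24a (4.28, SE 0.51, adjusted p 1.95e-06) and Naaa (2.49, SE 0.40, adjusted p 3.95e-05), and the adhesion gene Cadm1 was lower (-1.06). Of 7 type 2 genes, 5 were higher, such as the lectin Mgl2 (3.91, SE 0.67, adjusted p 7.81e-05), the most abundant of them in CD45+ cells at a median 327 RPKM, and Esam, also an endothelial gene, was lower (-6.27). Of 5 plasmacytoid genes, 3 were higher, such as Tlr7 (3.59, SE 0.67, adjusted p 0.000176), and Tcf4 was lower (-1.13); Bst2 was the most abundant at a median 152 RPKM in CD45+ and 108 RPKM in CD45- libraries. The type 2 gene Clec4a4 and the plasmacytoid genes Ly6d, Ccr9 and Tlr9 passed in CD45+ libraries alone and are left out of these counts. Without DN wild-type replicate 3 the differences were 4.14 for H2-Ab1, 4.26 for Itgax and 4.87 for Mgl2.

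Of 17 further genes of mature dendritic cells, 12 were higher in CD45+ libraries, led in abundance by Cd83 (3.94, SE 0.62, adjusted p 3.3e-05) at a median 378 RPKM, and including the chemokine Ccl17 (4.01, SE 0.62); without DN wild-type replicate 3 they were 4.60 and 4.73. Nudt17, Cacnb3 and Cd200 were lower at -2.53, -2.70 and -2.36 (Cd200 -3.10 without CD45 single positive wild-type replicate 2). Of 7 transcriptional regulators, with Bcl11a left out as admitted through CD45+ libraries alone, 6 were higher, among them Id2 (2.05, SE 0.30, adjusted p 1.35e-05), the most abundant at a median 900 RPKM, Batf (2.79) and Spi1 (3.37), which encodes PU.1. Among ligands, 3 of 5 were tested, and Flt3l was not matched by symbol. Xcl1, the ligand of Xcr1, was higher in CD45+ libraries (4.27, SE 1.15, adjusted p 0.00365), where CD45 single positive wild-type replicate 2 held 50.9% of the CD45+ sum; without it the difference was 3.29 (adjusted p 0.00874). Csf2 was lower (-2.01, SE 0.56, adjusted p 0.00466, and -2.77 without that library). Ccl19, a ligand of Ccr7, had 3 counts in the 12 CD45+ libraries together and entered the test through 3 CD45- libraries, all wild type, so no difference is read for it, and Ccl21a had 0 counts in every library. In DP against CD45 single positive, TdT single positive against DN and the genotype comparisons, edgeR called 0 genes of all 7 lists; voom and DESeq2 were read for the 10 members alone. Over the lists, 0 to 1 genes a list had an unadjusted p under 0.05 in the DP and TdT comparisons over both genotypes, 0 to 2 in the DP comparison within a genotype, and 0 to 3 in the genotype comparisons. All genes at that cut were 4.01% and 2854 of 15043 in the DP and TdT comparisons, 4.35% and 4.82% in the DP comparison within the wild type and the labelled cKO, and 3.34%, 9.78% and 10.2% between genotype labels in DP, CD45 single positive and CD45- cells. Without DN wild-type replicate 3, 9 of these 57 genes were called in TdT single positive against DN cells, where 5.76% of all genes were. Among them were Sirpa (1.95, SE 0.34, adjusted p 0.00653) and Clec10a (2.48, SE 0.54, adjusted p 0.0194). In that setting 4 of 8 macrophage markers and 1 of 5 leukocyte markers were called too, and their part in these values was not tested. Without the pair of libraries that stand apart, 15 of the 57 genes were called in that comparison, with 1492 of all 14849 genes tested. In that setting 1 of the 57 was also called between genotype labels in CD45- cells, with 51 of all genes.

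Markers of other cells, counted the same way, describe what else the sorts held. In CD45+ against CD45- libraries, 5 of 5 leukocyte markers were higher (most abundant Cd52, a median 1041 RPKM in CD45+ cells), 8 of 8 macrophage markers (C1qb, 5505 RPKM), 7 of 7 T cell markers (Cd2, 16 RPKM) and 2 of 2 NK cell markers (Klrk1, 3.21 RPKM). Of monocyte markers 3 of 4 were higher and 1 lower (Chil3, 255 RPKM), of neutrophil markers 5 of 5 tested were higher (S100a8, 38.5 RPKM), and of B cell markers 1 of 1 (Cd79b, 4.87 RPKM). Fibroblast markers were lower for 5 of 5 (Col1a1, 959 RPKM in CD45- cells), endothelial for 4 of 4 (Pecam1, 9.15 RPKM) and pericyte for 3 of 4 (Pdgfrb, 57.8 RPKM). Epithelial markers were split, with 1 of 3 higher and 2 lower in CD45+ cells (Krt18, 539 RPKM in CD45- cells). Ms4a1, Ncr1, Eomes and Epcam passed in CD45+ libraries alone and Tek, Tie1 and Krt19 in CD45- libraries alone, and they are left out of these counts. None of these markers was at 0 in all CD45+ or in all CD45- libraries. By median RPKM in CD45+ cells, C1qb thus stood far above the highest dendritic cell gene of the 10, Cd209a at 16.1 RPKM.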

How the data were processed

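RNA-seq counts of 22 sorted libraries were read by gene symbol (40254 of 41388 genes carry a symbol). The deposited tables give counts per gene, which the authors made with STAR 2.0.4b on GRCm38 and Subread featureCounts. The deposited CPM are counts scaled to a fixed library total, and the deposited RPKM are those CPM per kilobase of gene length; both were recomputed from the counts and checked. The 355 rRNA genes were excluded. Genes above 1 CPM in at least 2 libraries (15043) were fitted in edgeR 4.0.16 (R 4.3.3) with TMM factors, a mean for each of 8 groups and robust quasi-likelihood dispersion, with p adjusted by Benjamini-Hochberg over all genes tested and called at an adjusted p of at most 0.05. The SE is the absolute log2 fold change over the square root of F. The fit was tested on simulated data. P-values measure spread between libraries. Alternatives were limma 3.58.1 voom with quality weights, DESeq2 1.42.0 (an adjusted p that it leaves as missing stays missing and is not called), RLE factors, no filter, a fold threshold of 1 on the log2 scale, a replicate block, each of the 22 libraries left out in turn, and, added after the data were seen, the pair of libraries that stand apart left out together. The floor of 3 counts covers counting error alone. Named genes are the 10 members, Cdh2, Sp7 and Ptprc; from each of 7 dendritic cell lists at most 6 called genes of smallest adjusted p and the most abundant gene; from each of 11 marker lists the most abundant, those at 0 and those called; genes passing the filter on 1 side alone; and for each member the 3 genes of highest r. The members and lists were chosen with earlier results of these data known.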

Additional observations from a re-analysis of the deposited data

How the results depend on the processing

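Over up to 28 alternatives a comparison, no called value of the 10 genes changed direction. Of the 8 genes passing the filter on both sides, CD45+ against CD45- calls were 7 in edgeR, where 63.7% of all genes were called, 8 with voom (66.1%) and 8 with DESeq2 (64.3%), and leaving out a library changed the calls of Flt3 and Zbtb46, and that of Siglech, a description, as given. In TdT single positive against DN cells, 0 of the 10 were called in edgeR, 1 with voom, 2 without DN wild-type replicate 3 (0 to 2 over the libraries left out in turn) and 2 without the pair of libraries that stand apart, a setting added after the data were seen; the cause was not tested. Calls over all genes in that comparison went from 295 to 710 with voom, 986 with DESeq2, 111 with no filter, 156 with the fold threshold, 1492 without the pair, and 30 to 866 over the libraries left out. Between genotype labels in CD45- cells they went from 0 to 127 with DESeq2, 90 without TdT single positive wild-type replicate 2 and 51 without the pair; in CD45 single positive cells DESeq2 gave 33; in DP against CD45 single positive cells it gave 6 where edgeR gave 1. The fold threshold took CD45+ against CD45- calls over all genes from 9588 to 5662 (37.6%), and calls of the 8 genes from 7 to 6. With replicate number as a block, 7 of those 8 were called between CD45+ and CD45- cells, where 61.0% of all genes were. Flt3 was in (adjusted p 0.0143) and Zbtb46 out (adjusted p 0.0769). The block gave 0 of the 10 in DP against CD45 single positive cells. In TdT single positive against DN cells it gave 0 of the 10, with 192 of all genes. The labels do not say whether equal numbers share a mouse, and the values do not settle it: over 30 pairs of the same number r had a median of 0.0515 (-0.294 to 0.593), over 60 other pairs -0.021, 10 of the 30 were over 0.1, and 12 of 22 libraries were closest to their own number. Wild-type DP replicate 3 with CD45 single positive replicate 2 (0.399) and DP replicate 2 with CD45 single positive replicate 3 (0.345) were above their equal numbers (-0.294 and -0.139). Between TdT single positive and DN libraries the equal numbers were all over 0.1, at 0.593 and 0.216 in the wild type and 0.113 and 0.166 where labelled cKO. There wild-type TdT single positive replicate 2 was still higher with DN replicate 3 (0.427) than with its equal number. Sample numbers in the deposit could also mark the mouse, and would then keep most equal numbers together and part some. The labels do not say so, and these sample numbers were not used. The Flt3 and Zbtb46 changes under the block thus rest on an unstated pairing. The block cannot be fitted to genotype comparisons, since numbers are nested in genotype. A TdT single positive library left out leaves 1 in its group, assumed to vary like other groups. The floor of 3 counts is 0.112 to 0.181 CPM.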
